A study of Canis lupus familiaris with 8 samples.

Results

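Fat cells store triglyceride and release signalling proteins, and some of their products also circulate as carriers or hormones. Retinol binding protein RBP4 carries vitamin A from liver and fat to other tissues, DGAT2 joins the last fatty acid to make triglyceride, ADIPOQ (adiponectin) and LEP (leptin) are hormones made chiefly by fat cells, and S100B is a calcium-binding protein of Schwann cells, other glia and fat cells. A mammalian heart carries fat beneath its outer layer and around its vessels, so such transcripts can enter a piece of cardiac tissue beside those of muscle. RBP4, DGAT2, FABP4, ADIPOQ, LEP, PLIN1 and S100B were listed as members. Every probe set whose annotation gives 1 symbol from that list was taken, which gave 10 probe sets for 5 of the 7 genes, among 6540 genes with such a probe set in the series. FABP4 and PLIN1 have no probe set with a single symbol in the annotation used here and were left out.

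The samples were 8 arrays, each of total RNA from cardiac tissue of 1 male dog weighing 23 to 27 kg. The 4 HHcy dogs had chronic hyperhomocysteinemia, a raised blood level of homocysteine, brought on by methionine in their water until sampling at 2 weeks, and the 4 control dogs are labelled only as controls of the same study. The labels give no breed, age or heart chamber. Signals are probe set intensities scaled to a common trimmed mean of about 500.1 units on each array, with precision set by the 4 arrays in a group. The members were chosen by earlier results of the HHcy and control signals on these same arrays, so every difference between the groups in a member is given as a description, with no p of its own.

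The array labelled HHcy 6 stood apart in more than the signals of the members. All 9 tested cardiomyocyte markers had their lowest signal on it, and their summed signal was 14996 there, against 180183 to 209971 on HHcy 5, 7 and 8 and 169923 to 263207 on the controls. MYL3, a myosin light chain of the ventricle, read 27.4 on HHcy 6, against 6933 to 14579 on HHcy 5, 7 and 8 and 13604 to 23836 on the controls. Troponin TNNT2 read 24.5 on HHcy 6 and at least 5900 on every other array. Among the brightest probe sets of the 9 markers, MYL3 and TNNT2 lay farthest below the other arrays there. The myosin heavy chain MYH7 lay least far below. MYH7 read 6889 on HHcy 6, against 30226 to 40337 on HHcy 5, 7 and 8 and 24557 to 41458 on the controls. MYH7 was singled out after its values were seen. The 3'/5' signal ratio of actin, a sign of RNA breakdown when high, was 599.6 on HHcy 6 and 15.3 on HHcy 5, against 2.67 and 1.69 on HHcy 7 and 8 and 0.378 to 2.49 on the controls. The same ratio of GAPDH was highest on HHcy 5, at 17.2, with 10.47 on HHcy 6, 5.14 and 3.56 on HHcy 7 and 8 and 1.46 to 3.76 on the controls. HHcy 6 also correlated least with the rest, with a mean r of 0.784 across 14301 probe sets, against 0.887 to 0.907 for the other HHcy arrays and 0.857 to 0.907 for the controls. Its label says cardiac tissue, and its cardiomyocyte markers were reduced by very different factors, so the fold changes below are given with it and without it. What tissue the array holds was not tested.

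Of the 10 member probe sets, 9 had their highest signal of the 8 arrays on HHcy 6. The share of all probe sets that were highest on HHcy 6 was not counted, so nothing is read from this count. The gap to the other arrays was widest for DGAT2, then for RBP4 and S100B, and smaller for ADIPOQ and LEP. After HHcy 6 was left out, RBP4, DGAT2 and S100B still had higher average signals in HHcy than in control dogs, while both ADIPOQ probe sets and 2 of 3 LEP probe sets had lower log2 averages. In no member probe set did all HHcy arrays lie above or below all controls, which 11.4% of the 14301 tested probe sets did.

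**Figure D1:**
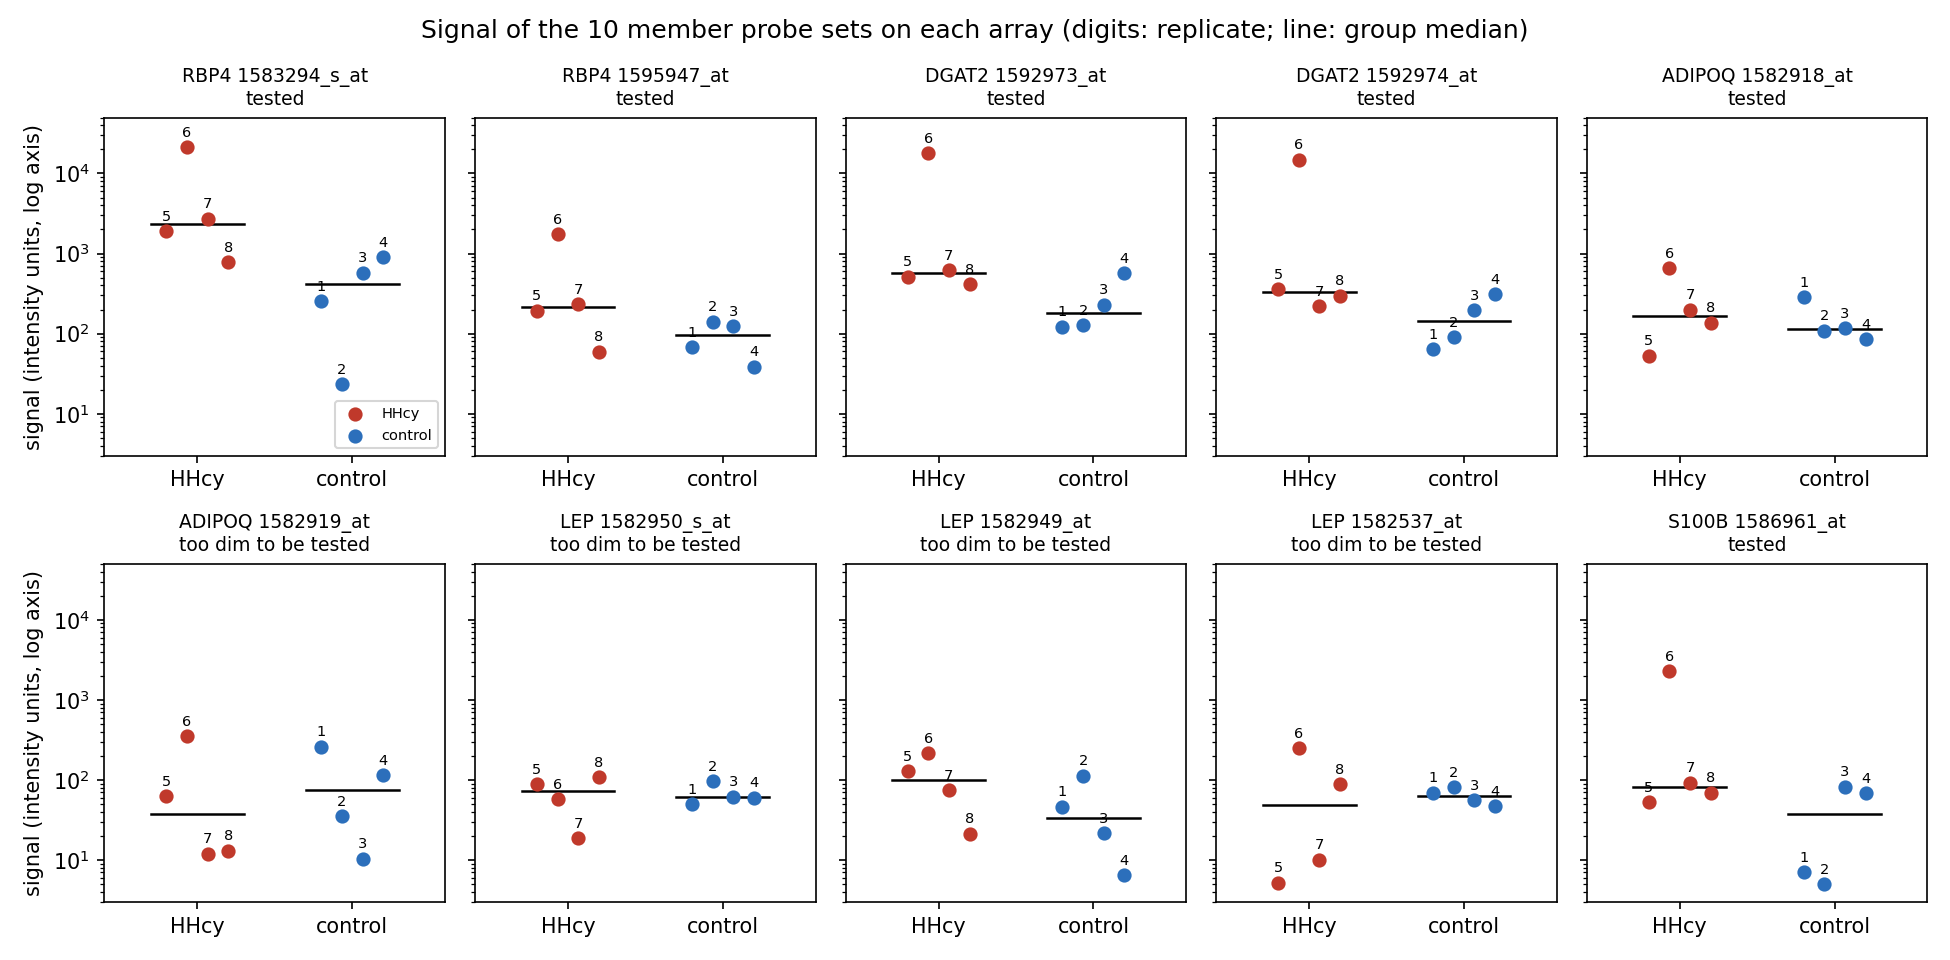
Signal of the 10 member probe sets (intensity units, log axis) on each HHcy and control array, with the replicate number above each point and a line at the group median. HHcy 6 is the highest point in 9 of 10 panels, by a wide gap for RBP4, DGAT2 and S100B.

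RBP4, the retinol carrier, is read by 2 probe sets. The brighter one, 1583294_s_at, had signals of 1916, 21115, 2725 and 784 on HHcy 5 to 8, against 255, 23.3, 575 and 900 on control 1 to 4. HHcy 5, 6 and 7 lay above every control, and HHcy 8 lay below control 4, so the groups overlapped at 1 array of each. The suffix of this probe set marks probes that can match more than 1 transcript. The mean signal was 6635 ± 9686 in HHcy dogs and 438 ± 382 in controls (SD, n = 4 each), the HHcy SD exceeding its mean because of HHcy 6. On the scale of log2(signal + 24) used for all fold changes here, which understates folds of dim probe sets, RBP4 was 10.6-fold higher in HHcy (log2 fold change 3.40 ± 1.01, SE). Without HHcy 6 the HHcy mean was 1808 ± 975 (SD, n = 3) and the fold was 5.57 (log2 fold change 2.48 ± 0.80, SE). The low end of the control range also mattered: without control 2, whose signal was 23.3, the log2 fold change was 2.53 with all 4 HHcy arrays.

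The second RBP4 probe set, 1595947_at, had 194, 1750, 235 and 59.6 on HHcy 5 to 8, against 67.3, 140, 124 and 38.6 on control 1 to 4. Again HHcy 5, 6 and 7 lay above every control and HHcy 8 did not. Its log2 fold change was 1.48 ± 0.75 (SE), and 0.63 ± 0.50 (SE) without HHcy 6, so the pair of probe sets gave the same direction and different sizes. They differed on control 2, which was the lowest array on the brighter probe set and the highest control on the other. Among the controls alone, the brighter RBP4 probe set had an SD of 1.89 on the log2 scale, larger than that of 99.9% of tested probe sets, and its highest control signal was 38.6 times its lowest.

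DGAT2, the diacylglycerol acyltransferase that completes triglyceride, also has 2 probe sets. On 1592973_at the signals were 516, 17816, 620 and 413 on HHcy 5 to 8, against 123, 129, 231 and 573 on control 1 to 4. On 1592974_at they were 358, 14916, 220 and 297 on HHcy 5 to 8, against 64.0, 90.4, 198 and 312 on control 1 to 4. In both, control 4 lay among the HHcy arrays 5, 7 and 8 and controls 1, 2 and 3 lay below all of the HHcy arrays. The log2 fold changes were 2.41 ± 0.999 and 2.30 ± 1.08 (SE), or 5.31-fold and 4.94-fold. Without HHcy 6 they were 1.14 ± 0.44 and 0.91 ± 0.45 (SE), or 2.21-fold and 1.88-fold, the HHcy means of the remaining arrays being 516 ± 103 and 292 ± 69.2 (SD, n = 3) and the control means 264 ± 212 and 166 ± 113 (SD, n = 4). Both DGAT2 probe sets thus gave nearly the same picture, with a log2 difference that more than doubled when HHcy 6 was included.

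S100B has 1 probe set, 1586961_at. Its signals were 52.4, 2281, 92.1 and 69.0 on HHcy 5 to 8, against 6.998, 4.98, 81.8 and 68.3 on control 1 to 4. Apart from HHcy 6, the HHcy arrays spanned the same level as controls 3 and 4, and controls 1 and 2 were near the bottom of the scale. The log2 fold change was 1.94 ± 0.97 (SE), and 0.78 ± 0.56 (SE) without HHcy 6. Since 2 control signals lie under the added constant of 24, the value depended on that constant, at 2.51 with 6 and 1.29 with 96. S100B passed the brightness filter of the test only through HHcy 6 and was too dim without it.

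ADIPOQ, the most fat-restricted hormone of the group, showed no comparable gap. On 1582918_at its signals were 53.2, 660, 200 and 137 on HHcy 5 to 8, against 287, 110, 116 and 85.1 on control 1 to 4. HHcy 6 was highest and HHcy 5 was lowest of the 8, so the HHcy arrays enclosed the controls. The log2 fold change was 0.39 ± 0.59 (SE) with all arrays and -0.18 ± 0.47 (SE) without HHcy 6. The dimmer probe set, 1582919_at, had 62.7, 349, 11.98 and 13.1 on HHcy 5 to 8, against 259, 35.5, 10.3 and 115 on control 1 to 4. It was among the dimmest 40% and was not tested. On it, too, HHcy 6 was highest, followed by control 1, and the log2 fold change was -0.22 ± 0.80 (SE), and -0.96 ± 0.67 (SE) without HHcy 6.

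LEP was dim on all of its 3 probe sets, none of which was bright enough to be tested. On 1582537_at the signals were 5.23, 250, 10.1 and 88.2 on HHcy 5 to 8, against 69.3, 80.7, 55.6 and 46.7 on control 1 to 4. On 1582949_at they were 128, 214, 73.8 and 21.3 on HHcy 5 to 8, against 46.05, 113, 21.6 and 6.49 on control 1 to 4. On 1582950_s_at they were 88.0, 57.3, 18.8 and 107 on HHcy 5 to 8, against 49.9, 95.6, 61.9 and 59.7 on control 1 to 4. The highest array was HHcy 6 on 2 of the 3 probe sets and HHcy 8 on the remaining one, and the 3 probe sets did not give 1 direction: their log2 fold changes were -0.21 ± 0.64, 0.90 ± 0.60 and -0.08 ± 0.46 (SE), and -0.84 ± 0.52, 0.54 ± 0.60 and -0.06 ± 0.52 (SE) without HHcy 6. No LEP signal on any array was above 250 units.

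**Figure D2:**
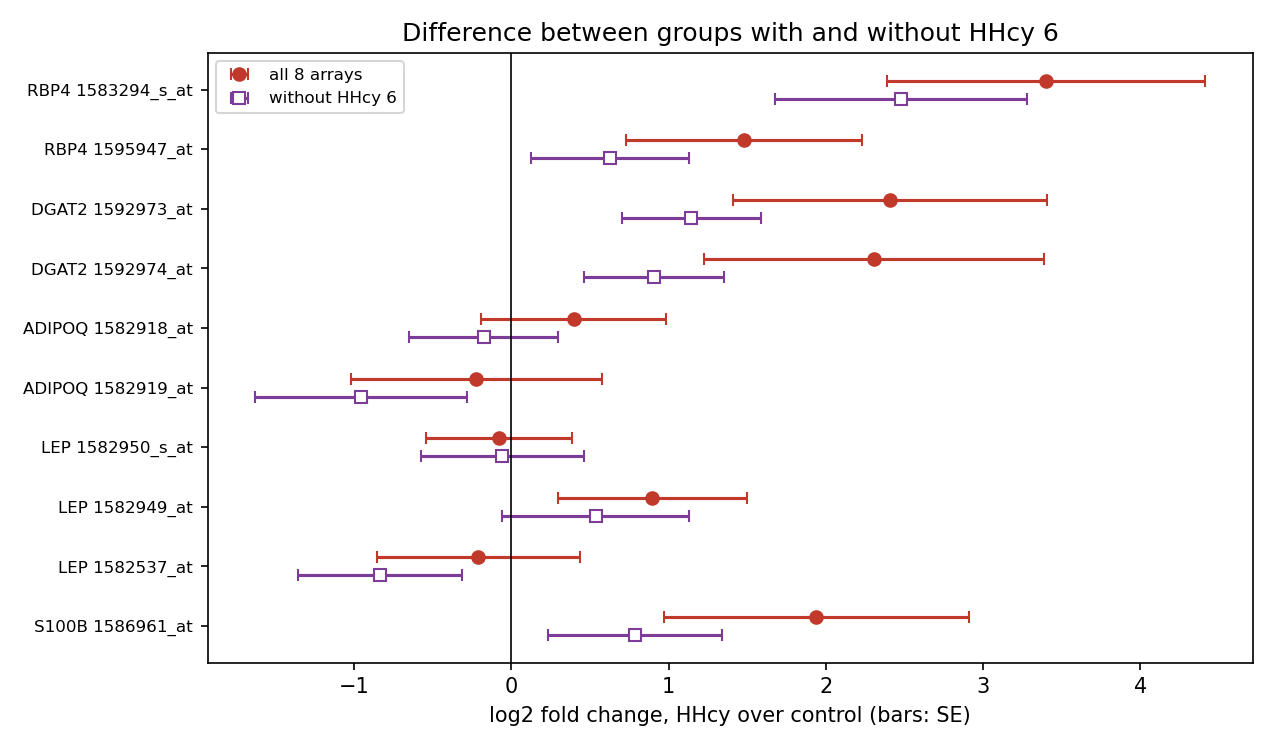
Log2 fold change of HHcy over control for each member probe set, with SE bars, from all 8 arrays (filled circles) and without HHcy 6 (open squares). RBP4, DGAT2 and S100B move toward 0 when HHcy 6 is left out, and ADIPOQ 1582918_at has 0.39 with it and -0.18 without it.

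How far HHcy 6 stood from the rest was set out for every tested probe set as its fold over the median of the other 7 arrays, a measure chosen after the member values were seen. DGAT2 was 61.3-fold above that median on 1592974_at and 40.8-fold on 1592973_at, ranks 4 and 12 of 14301. RBP4 was 26.2-fold above it on 1583294_s_at (rank 18) and 12.02-fold on 1595947_at (rank 58), and S100B was 24.98-fold above it (rank 20). ADIPOQ was 4.87-fold above it, rank 252. S100B was bright enough to be ranked only through HHcy 6, so its rank rests in part on the filter. On HHcy 6, 33 tested probe sets lay over 16-fold above the median of the others and 86 lay over 16-fold below, while on each of the other 7 arrays from 0 to 7 lay that far above and from 0 to 3 that far below.

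Limma with Benjamini-Hochberg adjustment over all probe sets called 0 of the 6 tested member probe sets at an adjusted p under 0.05, where it called 0.0979% of all 14301. Before adjustment, 2 of the 6 had a p under 0.05, as did 17.8% of all. Nothing is read from these counts, since the members were proposed with this comparison in view. Without HHcy 6, 0 of 5 tested member probe sets were called, against 0.126% of all, and 2 of the 5 had a p under 0.05 before adjustment, against 14.8% of all.

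Of 20 further adipocyte markers and adipokines, 4 were measured, and limma called 0 of them (1 with p under 0.05 before adjustment), with a median log2 fold change of 1.46, against 0.15 over all tested probe sets. Without HHcy 6 the median was 0.59 over 3 genes, 0 of them with p under 0.05 before adjustment, against 0.10 over all, and PCK1 was then too dim to be tested. CIDEA, a lipid droplet protein, had signals of 347, 13701, 407 and 224 on HHcy 5 to 8, against 210, 85.1, 124 and 356 on control 1 to 4. Its log2 fold change was 2.14 ± 1.03 (SE, limma adjusted p 0.299), and 0.81 ± 0.42 (SE) without HHcy 6, which was 55.3-fold above the median of the other arrays, rank 6 of all. PCK1, an enzyme that makes glycerol and glucose precursors in fat and liver, had 184, 4980, 77.9 and 53.1 on HHcy 5 to 8, against 5.42, 9.07, 68.4 and 133 on control 1 to 4, with HHcy 6 at rank 8 and a log2 fold change of 2.29 ± 1.12 (SE), 0.94 ± 0.64 (SE) without it. RARRES2, which encodes the adipokine chemerin, had 366, 666, 471 and 309 on HHcy 5 to 8, against 344, 266, 225 and 167 on control 1 to 4. Its log2 fold change was 0.78 ± 0.31 (SE, limma adjusted p 0.238), 0.59 without HHcy 6, and its other tested probe set had 0.19 with all arrays. UCP1, the heat-making protein of brown fat, was not highest on HHcy 6, where its signal of 181 lay within the control range, which ran up to 383. The summed signal of these 4 genes was 19529 on HHcy 6, against 848 to 1090 on HHcy 5, 7 and 8 and 433 to 943 on the controls. PCK1 and UCP1 were singled out after their values were seen. In these bulk samples a change in the number of fat cells, a change in RNA per fat cell and RNA from other cells cannot be told apart.

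**Figure D3:**
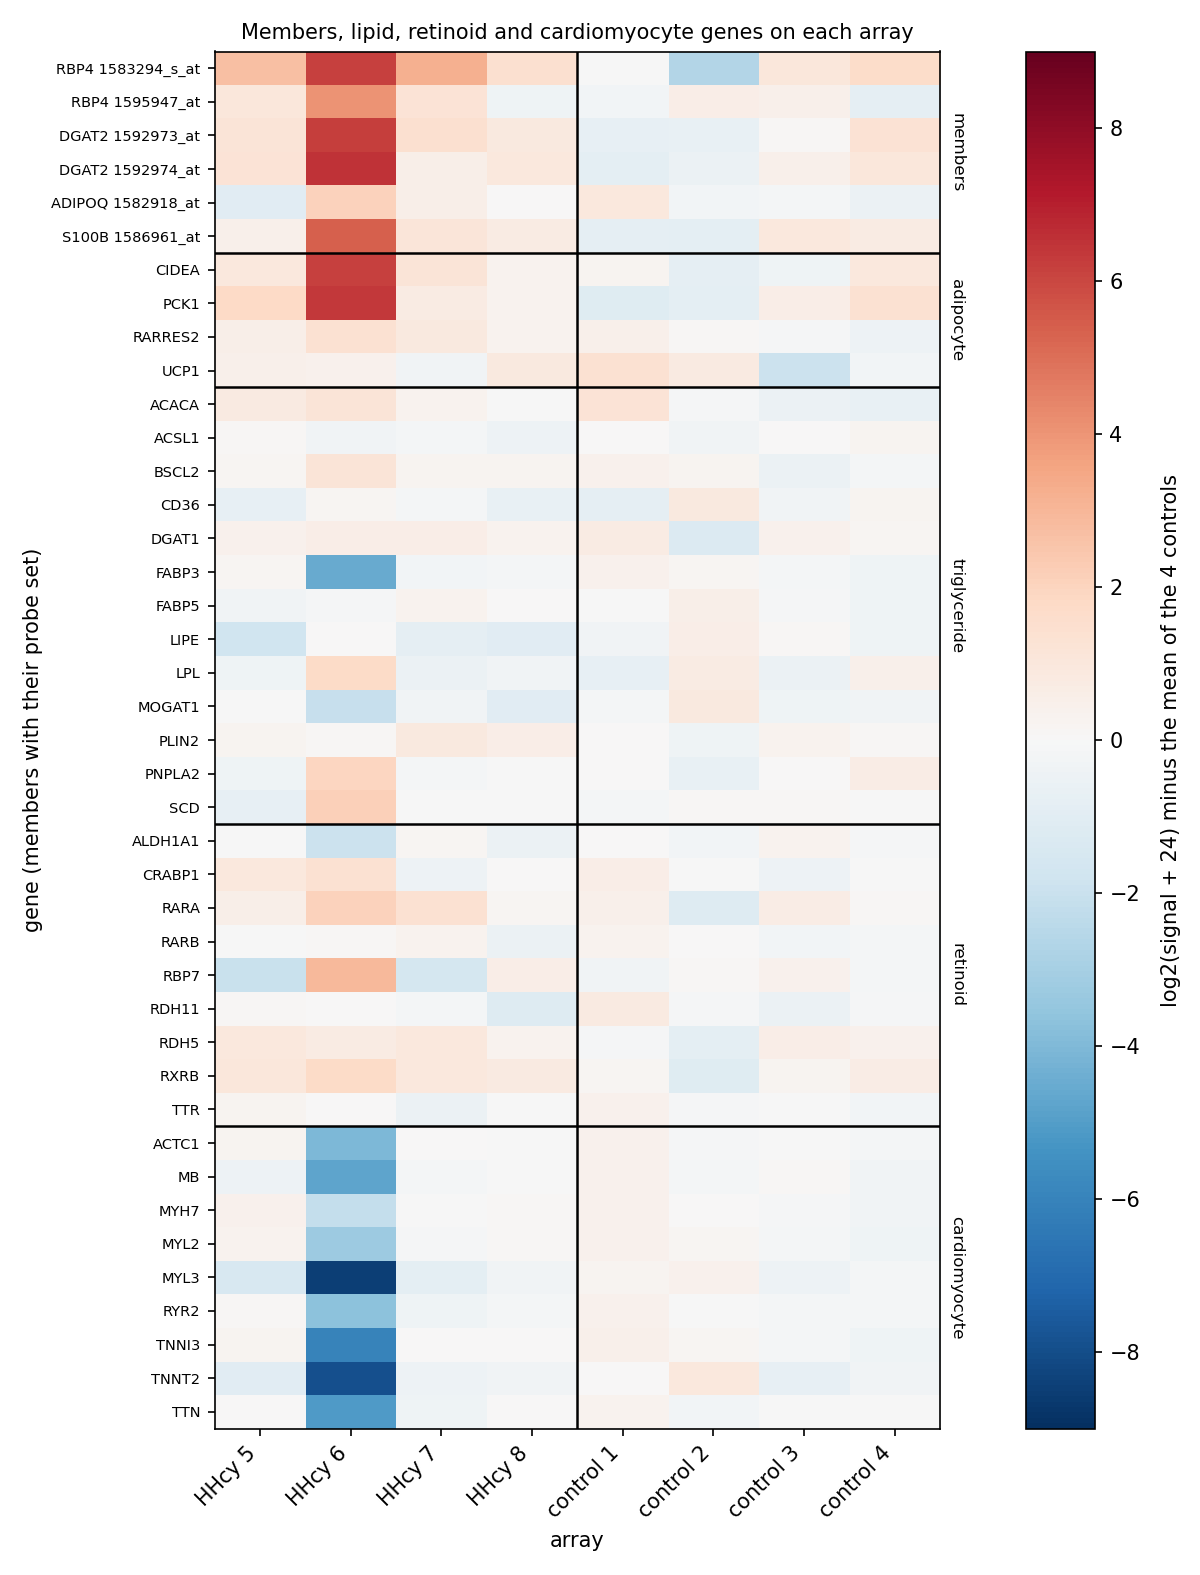
Log2(signal + 24) minus the control mean for the 6 tested member probe sets and for the tested adipocyte, triglyceride, retinoid and cardiomyocyte genes, by array, red for higher and blue for lower than controls. In the HHcy 6 column the RBP4, DGAT2 and S100B probe sets, CIDEA and PCK1 are the deepest red, ADIPOQ is paler, and all 9 cardiomyocyte markers are blue.

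Genes of triglyceride synthesis, storage and lipolysis were measured for 13 of 27 listed. Limma called 0 (0 with p under 0.05 before adjustment), and the median log2 fold change was 0.13, against 0.15 over all tested probe sets. Without HHcy 6 it was -0.18, against 0.10 over all, and 2 of the 13 had p under 0.05 before adjustment. DGAT1, the other enzyme of the same final step, had 260, 302, 316 and 248 on HHcy 5 to 8, against 343, 67.9, 257 and 223 on control 1 to 4, and HHcy 6 lay within the control range. MOGAT1, a monoacylglycerol acyltransferase, had a log2 fold change of -0.85 ± 0.45 (SE, limma adjusted p 0.338), -0.44 ± 0.36 (SE) without HHcy 6, and its signal of 75.3 on HHcy 6 was the lowest of the 8. The hormone-sensitive lipase LIPE had a log2 fold change of -0.91 ± 0.43 (SE, limma adjusted p 0.296), and -1.23 without HHcy 6. Several members of the list were highest on HHcy 6, by smaller factors than DGAT2: the desaturase SCD by 4.55-fold over the median of the other arrays, lipoprotein lipase LPL by 4.35-fold and the triglyceride lipase PNPLA2 by 3.97-fold. Their signals on HHcy 6 were 21657, 1340 and 3787. The muscle fatty acid binding protein FABP3 went the other way, with 1205 on HHcy 6, against 23819 to 31815 on HHcy 5, 7 and 8 and 22222 to 36730 on the controls. DGAT1, SCD, LPL, PNPLA2 and FABP3 were singled out after their values were seen.

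The retinoid list placed RBP4 among the other carriers, enzymes and receptors of vitamin A. Of 27 listed genes, 9 were measured, limma called 0 (1 with p under 0.05 before adjustment), and the median log2 fold change was -0.01. Without HHcy 6, 8 were measured, 0 had p under 0.05 before adjustment, and the median was 0.05. TTR, the plasma partner that carries RBP4 in blood, had 358, 304, 202 and 281 on HHcy 5 to 8, against 399, 277, 281 and 239 on control 1 to 4. Its log2 fold change was -0.06 ± 0.28 (SE, limma adjusted p 0.924), -0.10 without HHcy 6, and its groups overlapped. The retinoid X receptor RXRB had 147, 253, 140 and 127 on HHcy 5 to 8, against 70.9, 15.8, 77.8 and 113 on control 1 to 4, with all HHcy arrays above all controls. Its log2 fold change was 1.12 ± 0.44 (SE), 0.92 without HHcy 6, and did not pass (limma adjusted p 0.230). The groups did not overlap for 11.4% of all tested probe sets. The retinol dehydrogenase RDH5 had a log2 fold change of 0.74 ± 0.34 (SE, limma adjusted p 0.287), and 0.73 without HHcy 6. RBP7, a cellular retinol carrier of fat and capillary endothelium, had 6.35, 891, 15.3 and 155 on HHcy 5 to 8, against 73.7, 101, 131 and 82.5 on control 1 to 4. HHcy 6 was highest there and HHcy 5 and HHcy 7 were the lowest, with a log2 fold change of -0.01 ± 0.88 (SE), and -0.99 ± 0.61 (SE) without HHcy 6. RBP7 passed the brightness filter only through that array. TTR and RBP7 were singled out after their values were seen.

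Among adipogenic regulators and adipokine receptors, 7 of 17 were measured and limma called 0 (1 with p under 0.05 before adjustment), with a median log2 fold change of -0.25. The median was -0.11 without HHcy 6 (1 with p under 0.05 before adjustment) and 0.43 with the dimmest 60% of probe sets left out. PPARG, the master regulator of fat cell formation, had 87.02, 988, 111 and 96.4 on HHcy 5 to 8, against 126, 77.3, 103 and 129 on control 1 to 4. It was 7.95-fold over the median of the other arrays on HHcy 6 and within the control range on HHcy 5, 7 and 8. PPARG had a log2 fold change of 0.66 ± 0.62 (SE, limma adjusted p 0.583), which turned to -0.11 ± 0.37 (SE) without HHcy 6, and its other tested probe set had 1.77 with all arrays. NR1H3, the oxysterol receptor LXR alpha, had 508, 533, 342 and 332 on HHcy 5 to 8, against 96.7, 232, 230 and 201 on control 1 to 4. All its HHcy signals lay above all its control signals, and its log2 fold change of 1.11 ± 0.32 (SE), 1.003 without HHcy 6, did not pass (limma adjusted p 0.158). Groups that did not overlap were found for 11.4% of all tested probe sets. EBF1, a transcription factor of fat and B cells, had a log2 fold change of -0.78 ± 0.55 (SE, limma adjusted p 0.461), and -0.34 ± 0.48 (SE) without HHcy 6. The adiponectin receptor ADIPOR1 had 4850, 1873, 4659 and 4687 on HHcy 5 to 8, against 3838, 4630, 5110 and 4452 on control 1 to 4, lower on HHcy 6 than on any other array. PPARG and ADIPOR1 were singled out after their values were seen.

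Among the other S100 genes and their receptor, 3 measured genes were highest and 1 was lowest on HHcy 6. The matching shares over all probe sets were not counted. Of 17 genes listed, 6 were measured and limma called 0 (4 with p under 0.05 before adjustment), with a median log2 fold change of 0.84, and 0.58 without HHcy 6. Over all 14301 tested probe sets, 17.8% had a limma p under 0.05 before adjustment and 11.4% had groups that did not overlap. S100P had 420, 388, 363 and 430 on HHcy 5 to 8, against 254, 190, 161 and 136 on control 1 to 4, the HHcy arrays lying close together and all above the controls. Its log2 fold change was 1.05 ± 0.26 (SE, limma adjusted p 0.141), and 1.06 without HHcy 6. S100A4, a calcium-binding protein of fibroblasts and leukocytes, had 937, 2192, 1410 and 2428 on HHcy 5 to 8, against 723, 742, 805 and 805 on control 1 to 4, and its log2 fold change was 1.06 ± 0.31 (SE, limma adjusted p 0.157), 0.92 without HHcy 6. S100A1, the form of heart muscle, was lowest on HHcy 6, at 486, against 2670 to 5181 on HHcy 5, 7 and 8 and 4659 to 4983 on the controls. S100A1 was singled out after its values were seen.

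Markers of other cell types that could supply these transcripts were measured on the same arrays. Of 12 Schwann cell and nerve markers, 2 were measured and limma called 0 (1 with p under 0.05 before adjustment). Their summed signal was 451 to 806 in HHcy, with HHcy 6 the lowest of the 4, and 236 to 413 in controls. The growth-cone protein GAP43 had a log2 fold change of 1.38 ± 0.41 (SE, limma adjusted p 0.162), and the myelin protein PMP22 0.05 ± 0.68 (SE, limma adjusted p 0.975), or 1.5 and 0.02 without HHcy 6. Of 12 liver and plasma protein markers, 4 were measured and limma called 0 (0 with p under 0.05 before adjustment), with a summed signal of 946 on HHcy 6, against 367 to 764 on HHcy 5, 7 and 8 and 440 to 752 on the controls. The fibrinogen chain FGB had a log2 fold change of 0.93 ± 0.54 (SE, limma adjusted p 0.379), 0.61 without HHcy 6, and its other tested probe set had 0.09. The plasma protein AHSG had 0.42 ± 0.39 (SE, limma adjusted p 0.575), and 0.32 without HHcy 6. Albumin, ALB, had a signal of 193 on HHcy 6, against 31.6 to 101 on HHcy 5, 7 and 8 and 74.3 to 149 on the controls, and TTR lay within the control range there. ALB was singled out after its values were seen.

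The summed signals of the macrophage, fibroblast and keratin markers were higher on each of the 4 HHcy arrays than on every control. Of all 14301 tested probe sets, 11.4% had groups that did not overlap, and 17.8% had a limma p under 0.05 before adjustment. Limma called 0 of 11 measured macrophage markers (8 with p under 0.05 before adjustment), with a summed signal of 11340 to 21746 in HHcy and 6104 to 8800 in controls. The co-receptor CD14 had a log2 fold change of 1.42 ± 0.32 and lysozyme LYZ of 1.1997 ± 0.27 (SE, limma adjusted p 0.121 each), or 1.38 and 0.98 without HHcy 6. Limma called 0 of 7 fibroblast markers (5 with p under 0.05 before adjustment), with a summed signal of 37167 to 92400 in HHcy, highest on HHcy 6, and 23196 to 35611 in controls. The collagen chains COL1A2 and COL1A1 had log2 fold changes of 2.35 ± 0.64 and 1.59 ± 0.54 (SE, limma adjusted p 0.148 and 0.193), or 2.28 and 1.49 without HHcy 6. On HHcy 8 their signals of 1645 and 2137 lay within the control ranges. The collagen chain COL3A1 was dim on the probe set used, with signals of 12.1 to 219 in HHcy and 70.3 to 317 in controls. Its 3 other probe sets were not tested. Its log2 fold change was -0.48 ± 0.60 (SE, limma adjusted p 0.685), and -0.66 ± 0.63 (SE) without HHcy 6, so no direction is read from it. COL3A1 was singled out after its values were seen. Of 12 mesothelial and epicardial markers, 2 were measured, KRT18 and KRT8, keratins of simple epithelia. Limma called 0 of them (2 with p under 0.05 before adjustment), and their summed signal was 201 to 1052 in HHcy and 36.8 to 160 in controls. The log2 fold change was 2.18 ± 0.51 for KRT18 and 2.39 ± 0.56 for KRT8 (SE, limma adjusted p 0.121 and 0.122), or 2.33 and 2.04 without HHcy 6.

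Endothelial markers, which include genes of the heart capillaries, showed 0 calls of 5 by limma (0 with p under 0.05 before adjustment). Their summed signal was 23077 to 32730 in HHcy and 21536 to 29350 in controls, most of it from PECAM1, with 30198 of 32730 on HHcy 6. The median log2 deviation of the 5 genes from the control mean was -0.59 on HHcy 6, the lowest of the 8 arrays. VWF had a log2 fold change of -0.59 ± 0.29 (SE, limma adjusted p 0.306), and PECAM1 of 0.26 ± 0.24 (SE, limma adjusted p 0.572), which was -0.04 when scaled by the median. Without HHcy 6 the values were -0.33 and 0.13. With all arrays, the other tested probe sets of VWF had -0.58 and 1.29, and those of PECAM1 ran from -0.23 to 0.32. Of the 9 cardiomyocyte markers limma called 0 (0 with p under 0.05 before adjustment), and their median log2 fold change was -1.34 with HHcy 6 and -0.10 without it. MYL3 and TNNT2 had log2 fold changes of -2.78 ± 1.40 and -2.43 ± 1.37 (SE, limma adjusted p 0.320 and 0.364), or -0.87 ± 0.27 and -0.59 ± 0.34 (SE) without HHcy 6. The part of these cell types and of RNA breakdown in the member signals was not tested.

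**Figure D4:**
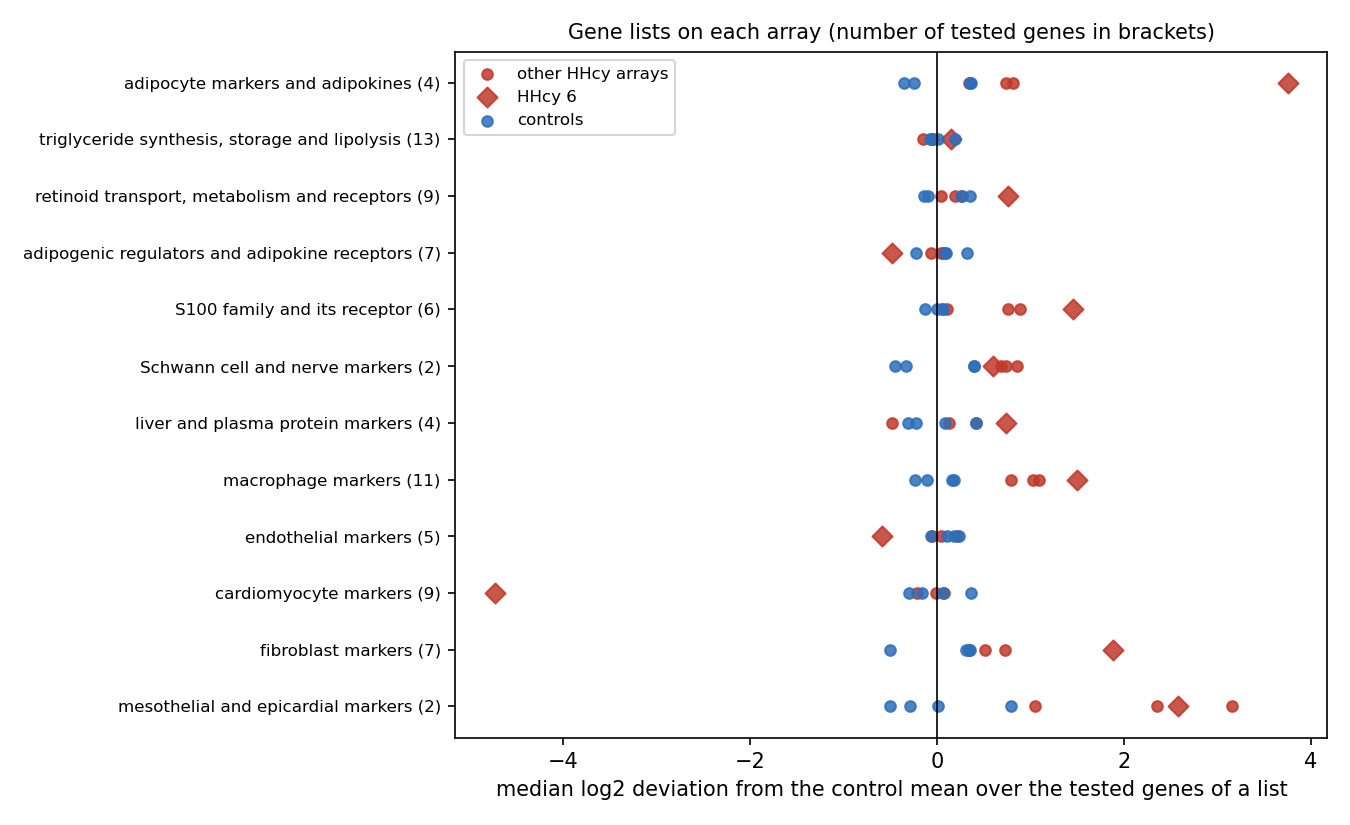
Median log2 deviation from the control mean over the tested genes of each list, 1 point per array, with HHcy 6 as a diamond. HHcy 6 reaches 3.76 for the adipocyte markers and -4.73 for the cardiomyocyte markers, where the other 7 arrays stay between -0.36 and 0.81 and between -0.30 and 0.37. The adipocyte value is a median of 4 genes that differ widely. On HHcy 6, CIDEA was 55.3-fold and PCK1 54.2-fold above the median of the other arrays, RARRES2 2.07-fold and UCP1 0.945-fold. PCK1 was bright enough to be tested only through HHcy 6.

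The genes whose signals varied most like RBP4 and ADIPOQ from dog to dog were sought after subtracting each group's mean, so that the difference between groups played no part. Over the 8 arrays and all other named genes, the highest Pearson r with RBP4 1583294_s_at belonged to LMO4 (0.99), WDR1 (0.98), FUCA2 (0.98), PLAAT3 (0.98) and TYW3 (0.97), with Spearman's rho from 0.905 to 0.976. LMO4 is a LIM-domain transcription cofactor, WDR1 an actin-disassembly factor, FUCA2 a fucosidase, PLAAT3 a phospholipase abundant in fat and TYW3 a tRNA-modifying enzyme. All of them had their highest signal on HHcy 6, PLAAT3 with 2557 there, against 16.6 to 408 on the other arrays. Without HHcy 6 the same r was 0.958 to 0.990 over 7 arrays, and 1 of the 5 stayed among the 5 most alike. For ADIPOQ 1582918_at the 5 were LOC480441 (0.98), EGFR (0.98), TREM2 (0.97), GBA2 (0.96) and NELL1 (0.96), and 0 of them stayed among the 5 most alike without HHcy 6, where their r was 0.901 to 0.960. EGFR is a growth factor receptor, TREM2 a myeloid lipid receptor, GBA2 a glucosylceramidase and NELL1 a secreted growth regulator. The lists for RBP4 and ADIPOQ shared no gene. These are the highest of a very large number of correlations over few arrays, given as a description with no test.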

How the data were processed

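The authors deposited 1 linear intensity per probe set and array, computed with MAS5 per the submitters' processing notes; version, detection calls and scan batches are not given in the sources used here. Groups come from the sample titles, and the labels speak of separate dogs. The annotation of the platform gave 1 symbol for 10549 of 23913 probe sets, several for 138 and none for 13226, and all 5 measured members were found by gene identifier in RefSeq's table under the same symbol. No genome build or sequence was used here.

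Signals were taken as log2(signal + 24), 24 being the 20th percentile of all signals. After 77 control probe sets, the dimmest 40% by mean were removed, leaving 14301, which were fitted with limma 3.58.1 in R 4.3.3 (lmFit, then eBayes with an intensity trend) and adjusted by Benjamini-Hochberg at 0.05. The SE of a probe set too dim for the test, LEP and the second ADIPOQ one, comes from the same fit without the filter. Each listed gene is given by its brightest tested probe set, and of 30 listed genes with another tested probe set, 10 have one of opposite sign (ACSL1, LPL, PECAM1, PLIN2, PPARGC1A, RARB, TNNI3, TTN, UCP1 and VWF) and others differ in size. The code was tested on simulated data. The members and the 12 gene lists were chosen with earlier results of these data known. Named genes are the 2 of lowest p in each list, up to 4 where any passed, and the 5 most like RBP4 and ADIPOQ, and others are said to be chosen later. Alternatives were 2 scalings, 2 other constants (6 and 96), 2 other filters, 2 variance models, leaving out each array, and leaving out HHcy 5 and 6 together.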

Additional observations from a re-analysis of the deposited data

Results flagged for a closer look

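Within a group of 4 arrays, a probe set was singled out when the gap of its farthest array to the next, as a share of the group's range on the log2 scale, exceeded Dixon's 95% critical value, which chance alone gives for about 1 in 20 groups. Over 88 groups of members and named genes, 13 exceeded it, and HHcy 6 was the far array in 7 of them. These genes were chosen by results on the same arrays, so the count cannot be compared with that rate. The share was 0.895 and 0.891 for the DGAT2 probe sets, 0.877 for S100B, 0.862 for CIDEA and 0.837 for FUCA2, with HHcy 6 far above the other HHcy arrays. It was 0.911 for TNNT2 and 0.869 for MYL3, with HHcy 6 far below. Neither RBP4 probe set met the rule in HHcy, since HHcy 8 also lay well below HHcy 5 and 7 on them. CD14 had 0.878, with HHcy 8 below the rest. In controls the share was 0.949 for GAP43 (control 2 low), 0.914 for KRT18 (control 3 high), 0.894 for EGFR (control 1 high), 0.888 for COL1A2 (control 4 low) and 0.841 for MOGAT1 (control 2 high).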

How the results depend on the processing

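No paired analysis was possible because the HHcy and control dogs carry no replicate number in common. Over the 17 alternatives, both RBP4 and both DGAT2 probe sets and S100B kept a positive log2 fold change, from 2.20 to 4.05 and 0.44 to 2.10 for RBP4, 1.13 to 2.93 and 0.76 to 2.89 for DGAT2 and 0.78 to 2.51 for S100B. ADIPOQ 1582918_at turned negative without HHcy 6 and lay between -0.18 and 0.87, and 1582919_at turned positive in 3 alternatives, up to 0.30 without control 1. LEP 1582537_at and 1582950_s_at changed sign in 3 alternatives each. Leaving out HHcy 5 and 6, the arrays with the highest 3'/5' ratios of actin and GAPDH, kept HHcy 7 and 8. The log2 fold changes were then 2.35 and 0.44 for RBP4, 1.13 and 0.76 for DGAT2 and 0.93 for S100B. ADIPOQ then had 0.26 on 1582918_at and -1.37 on 1582919_at. The count of called member probe sets was 0 in every alternative. Over all probe sets the 14 calls became 7 with quantile scaling, 9 with the dimmest 60% left out, 76 with array weights and 5 without HHcy 5 and 6, and ran from 3 to 31 when 1 array was left out. Median scaling moved the median log2 fold change of all probe sets to -0.15 and the split at an unadjusted p under 0.05 to 730 higher and 1816 lower, against 1152 and 1160 with quantile scaling and 1700 and 849 as reported. Among the lists, 1 fibroblast marker (COL1A2) was called without HHcy 8 and 1 macrophage marker (LYZ) with array weights; the cause was not tested. The median of the adipogenic regulators, -0.25 as reported, was 0.43 with the dimmest 60% left out, which tests fewer genes. The mesothelial list had no tested gene with the dimmest 60% left out. Of the 5 genes most like RBP4, 3 stayed with quantile scaling, 2 with median scaling, 0 by Spearman's rho and 1 without HHcy 6, and of those most like ADIPOQ 1, 3, 2 and 0.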
